A study of Mus musculus with 6 samples.

Results

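The genes described here are 32 members of the interferon response and of antigen presentation, chosen by gene symbol, out of the 34616 gene symbols in the deposited table. All 32 were found. *Ciita* has 2 entries in the table, so the members fill 33 of its 37979 rows. They were grouped by role into RNA sensors (*Ifih1*, *Ddx58*), transcription factors (*Irf1*, *Irf7*, *Irf9*, *Stat2*, *Ciita*), antiviral effectors (*Ifit1*, *Ifit2*, *Ifit3*, *Oasl2*, *Rsad2*, *Bst2*, *Ifitm3*, *Ifi35*), the ISG15 system (*Isg15*, *Usp18*), interferon-induced GTPases (*Gbp2*, *Gbp3*, *Igtp*, *Irgm1*), MHC class I presentation (*Tap1*, *Tap2*, *Tapbp*, *B2m*, *H2-K1*, *H2-D1*, *H2-T23*) and MHC class II presentation (*H2-Aa*, *H2-Ab1*, *H2-Eb1*, *Cd74*).

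RNA was measured by RNA-seq in the hindlimb gastrocnemius (GAS) muscle of 3 wildtype (WT) and 3 Kvβ2 knockout (KO) male mice, 20 weeks of age and untreated, with 1 library per mouse. Kvβ2, encoded by *Kcnab2*, is a subunit that associates with voltage-gated potassium channels. Mice heterozygous for the null allele were bred with each other to give both genotypes, so the KO mice carried it in every tissue and not in muscle alone. The libraries of each genotype carry the numbers 1, 7 and 8, which name the mice below. Values are FPKM, which count fragments relative to the length of a transcript in kilobases and to the mapped fragments of the library.

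Interferons are cytokines, and cells release those of type I on sensing viral nucleic acid. Type I interferons act through JAK kinases on a complex that holds STAT2 and IRF9 and binds interferon-stimulated response elements (ISREs) in the promoters of target genes. Interferon gamma acts on genes with gamma-activated sites, and through IRF1 and CIITA downstream. MHC class I molecules present peptides from the cytosol to CD8 T cells and are made by most cells. MHC class II molecules present peptides from endosomes to CD4 T cells and are made mainly by macrophages, dendritic cells and B cells. Resting myofibers are known to make little of either.

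Promoters of some members hold the letters of an ISRE, and 5 are shown here because they belong to roles whose levels in muscle differed widely. The sequences are 60-base windows of RefSeq promoters on GRCm38, on the strand of the gene and 5′ to 3′, and lie before the annotated exons. Capitals mark matches, on either strand and with overlapping matches joined, to a 10-base pattern (GAAA, any 2 bases, GAAA) or to its 9-base variant GAANNGAAA.
*Isg15*, chr4:156200856-156200915 (minus strand): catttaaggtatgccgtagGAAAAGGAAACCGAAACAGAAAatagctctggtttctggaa
*Ifit1*, chr19:34640760-34640819 (plus strand): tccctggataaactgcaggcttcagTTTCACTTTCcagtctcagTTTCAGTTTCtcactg
*Igtp*, chr11:58199494-58199553 (plus strand): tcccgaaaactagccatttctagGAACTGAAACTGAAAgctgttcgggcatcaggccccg
*B2m*, chr2:122147523-122147582 (plus strand): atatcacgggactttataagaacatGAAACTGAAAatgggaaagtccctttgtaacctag
*H2-K1*, chr17:34000404-34000463 (minus strand): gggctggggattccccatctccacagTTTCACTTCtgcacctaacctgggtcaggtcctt

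*Isg15*, *Ifit1*, *Igtp* and *B2m* hold the 10-base pattern and *H2-K1* holds only the 9-base variant, in which 1 base is missing from the first GAAA. In windows from 250 bases before to 50 bases after each start, the 10-base pattern occurred in 15 of the 27 members with a window (55.6%) and in 3.99% of 27025 genes. The 9-base variant, which neither contains the 10-base pattern nor is contained in it, occurred in 8 of 27 members (29.6%) and in 8.68% of genes. The letters TTCNNNGAA of a gamma-activated site, which read the same on both strands, occurred in 6 of 27 members (22.2%) and in 9.55% of genes. By role, the 10-base pattern was present in 4 of 4 GTPases, 2 of 2 RNA sensors, 5 of 8 antiviral effectors and 2 of 6 class I members with a window. It was found in neither of the class II members with a window, *H2-Aa* and *H2-Eb1*. Of the 6 members that came to a low unadjusted p between the genotypes below, 5 have a window. Among these 5, *Ifitm3* holds the 10-base pattern, *H2-K1*, *H2-D1* and *Ifi35* hold the 9-base variant, and *Tapbp* holds neither. Of 32 member windows, 22 had their first 30 bases after the start in an annotated transcript of the gene. The members were chosen as interferon or presentation genes and the letters after the promoters had been scanned, so these shares are descriptive. A match describes letters in a window and not a bound site.

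*Kcnab2* was read first to check the labels. WT mice 1, 7 and 8 gave 0.233, 0.10 and 0.110 FPKM, KO mouse 7 gave 0.0151 FPKM, and the gene was listed at 0 in the other KO mice (p = 0.1 by a two-sided exact permutation test, and 3 against 3 cannot give less). By steps of whole fragments in low values, the KO libraries held about 14900000 to 19400000 fragments and the WT libraries about 20500000 to 21600000, so each KO library was shallower than each WT library. Markers of skeletal myofibers summed to 38110 to 40547 FPKM in KO and to 24020 to 34692 FPKM in WT libraries, so the tissue label held. The sum was higher in each KO library, but this did not hold for each marker. Of the 8 markers, 3 (*Acta1*, *Ckm* and *Des*) had each KO library above each WT library, against 18.3% of all tested genes. *Myoz1* and *Pvalb* had negative log2 fold changes of -0.09 and -0.15. Bulk RNA cannot tell fewer cells of a type from less RNA per cell.

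Genotype was compared with limma on log2(FPKM + 0.1) for the 12334 genes whose mean reached 0.5 FPKM, of which 29 were members. In total, 0 of these 29 were called at an adjusted p under 0.05, in a table where 0.324% of tested genes were called. At an unadjusted p under 0.05, 6 members were higher in KO muscle, where 15.3% of all tested genes were, and 0 were lower, where 10.9% of all tested genes were. The 6 were *Tap2*, *Tapbp*, *H2-K1*, *H2-D1*, *Ifi35* and *Ifitm3*. A share of 6 in 29 is near the 15.3% over all genes. In 6 members every KO library was above every WT library (*Tap2*, *Tapbp*, *H2-K1*, *Ifi35*, *Ifitm3* and *H2-Aa*), as in 18.3% of all tested genes, and in 0 members was every KO library below every WT library, as in 16.2%. The fitted log2 difference was positive in 21 members and negative in 8, with a median of 0.15, beside a median of 0.01 over all tested genes. Fold changes on this scale understate the change of low genes.

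**Figure D1:**
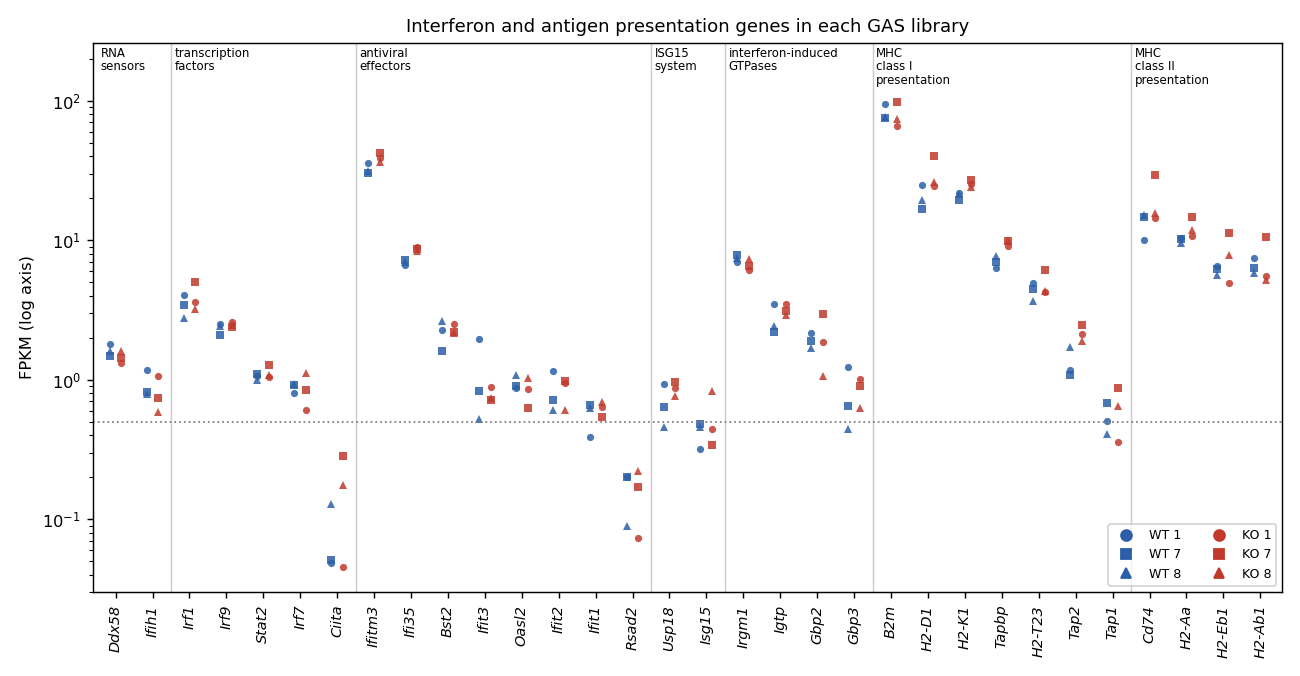
FPKM on a log axis of each member in each library, grouped by role, with 1 point per mouse, WT in blue and KO in red, and marker shapes for mice 1, 7 and 8. The dotted line is the filter of 0.5 FPKM, and points span from *Ciita*, *Rsad2* and *Isg15* with means under it to *B2m* at 66.2 to 97.8 FPKM.

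The RNA sensors RIG-I (*Ddx58*) and MDA5 (*Ifih1*), which detect viral double-stranded RNA, were low and overlapped between the genotypes. *Ddx58* was at 1.81, 1.47 and 1.60 FPKM in WT mice 1, 7 and 8, and in KO mice 1, 7 and 8 at 1.31, 1.43 and 1.62 FPKM. Its log2 fold change was -0.15 (standard error, SE, 0.18, adjusted p = 0.605). *Ifih1* was at 1.17, 0.817 and 0.792 FPKM in the WT mice, against 1.06, 0.744 and 0.583 FPKM in the KO mice, in the same order, with mouse 1 the highest in each genotype. Its log2 fold change was -0.21 (SE 0.30, adjusted p = 0.676).

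Among the transcription factors, *Irf1*, which carries the response to interferon gamma to class I genes, had the highest level and, among the 4 tested, the largest fold change. It was at 4.07, 3.46 and 2.76 FPKM in WT mice 1, 7 and 8, and in KO mice 1, 7 and 8 at 3.60, 4.99 and 3.19 FPKM. KO mouse 7 was the highest library, and the other KO libraries lay within the WT range. On the log2 scale KO minus WT was 0.18 (SE 0.21, adjusted p = 0.610), and it was 0.00027 without KO mouse 7 and 0.038 without WT mouse 8. *Irf9* and *Stat2*, of the type I complex, differed by 0.08 and 0.10 on the log2 scale, and *Irf7*, which amplifies type I interferon production, by -0.07. *Irf9* ranged from 2.09 to 2.60 FPKM, *Stat2* from 0.991 to 1.28 FPKM and *Irf7* from 0.606 to 1.12 FPKM over the 6 libraries, with overlap between the genotypes in each. *Ciita*, the coactivator that switches on class II genes, was under the filter. Its annotated entry was at 0.0485 to 0.128 FPKM in the WT mice and 0.0453 to 0.283 FPKM in the KO mice (two-sided exact permutation test, p = 0.4), and KO mouse 7 was the highest library. Its second entry was listed at 0 in 3 libraries and reached at most 0.0350 FPKM (two-sided exact permutation test, p = 1).

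The antiviral effectors fell into a pair at high level and 6 genes at low level. IFITM3, a membrane protein that blocks entry of enveloped viruses, was encoded by the most abundant of these transcripts. *Ifitm3* (chromosome 7, 141009586 to 141010770 of GRCm38) had values of 35.6, 30.5 and 31.1 FPKM in WT mice 1, 7 and 8, and of 38.9, 41.8 and 36.1 FPKM in KO mice 1, 7 and 8. Each KO library lay above each WT library, the closest pair being KO mouse 8 and WT mouse 1. The log2 fold change was 0.27 (SE 0.11, unadjusted p = 0.0471 and adjusted p = 0.186 by limma). *Ifi35*, an interferon-induced regulator of innate signalling on chromosome 11 (101448407 to 101458698), had values of 6.66, 7.21 and 6.95 FPKM in the WT mice, against 8.98, 8.60 and 8.37 FPKM in the KO mice. The libraries of each genotype lay close together and did not overlap, with means of 6.94 ± 0.272 FPKM (SD, n = 3) for WT, against 8.65 ± 0.309 FPKM (SD, n = 3) for KO mice. The fitted log2 difference was 0.31 (SE 0.10, unadjusted p = 0.0176 and adjusted p = 0.124 by limma).

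The classical type I targets were low in both genotypes. *Ifit1*, *Ifit2* and *Ifit3*, which encode proteins that bind viral RNA or partner with those that do, lie together on chromosome 19 between 34550694 and 34650009. *Ifit1* ranged from 0.386 to 0.694 FPKM and *Ifit2* from 0.608 to 1.149 FPKM over the 6 libraries, with log2 fold changes of 0.16 and 0.05. *Ifit3* was singled out after its values were seen, because the WT mice were spread widely. It was at 1.97, 0.825 and 0.524 FPKM in WT mice 1, 7 and 8, and in KO mice 1, 7 and 8 at 0.882, 0.712 and 0.741 FPKM. WT mouse 1 was the highest library and WT mouse 8 the lowest, so the KO range lay within the WT range. On the log2 scale KO minus WT was -0.28 with a 95% interval from -1.29 to 0.74, and it was 0.20 without WT mouse 1. *Oasl2*, a relative of the oligoadenylate synthetases, and *Bst2*, which tethers budding virions, ranged from 0.629 to 1.09 FPKM and from 1.59 to 2.64 FPKM, with log2 fold changes of -0.19 and 0.09. *Rsad2*, which encodes the antiviral enzyme viperin, was under the filter at 0.0739 to 0.223 FPKM, or about 5 to 17 fragments per library (two-sided exact permutation test, p = 0.7).

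ISG15 is a ubiquitin-like protein that interferon induces strongly, and USP18 removes it from its targets. *Isg15* was under the filter, at 0.317 to 0.484 FPKM in the WT mice and 0.340 to 0.827 FPKM in the KO mice, with KO mouse 8 the highest (two-sided exact permutation test, p = 0.7). It rested on about 4 to 8 fragments in each library, so a difference of moderate size was not detectable at this depth. *Isg15* lies on the chromosome of *Kcnab2*, 3721553 bases away. *Usp18* was at 0.925, 0.632 and 0.459 FPKM in WT mice 1, 7 and 8, and in KO mice 1, 7 and 8 at 0.869, 0.956 and 0.768 FPKM. WT mouse 1 lay among the KO libraries. The log2 fold change was 0.36 with a 95% interval from -0.35 to 1.07 (adjusted p = 0.471).

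Of the interferon-induced GTPases, which act at the vacuoles of intracellular pathogens, *Irgm1* had the highest level. It was at 6.94, 7.83 and 7.404 FPKM in WT mice 1, 7 and 8, and in KO mice 1, 7 and 8 at 6.12, 6.57 and 7.34 FPKM, with a log2 fold change of -0.15 (SE 0.12, adjusted p = 0.456). KO mouse 8 lay within the WT range. *Igtp* had the largest fold change of the GTPases, 0.25 (SE 0.19, adjusted p = 0.439), at 3.49, 2.20 and 2.43 FPKM in WT and 3.48, 3.12 and 2.92 FPKM in KO muscle. WT mouse 1 and KO mouse 1 were level at the top. *Igtp* shares 7974 bases on the same strand with *Irgm2*, whose own log2 fold change was -0.10, and how fragments were divided between them is not known. *Gbp2* and *Gbp3*, the guanylate-binding members, ranged from 1.06 to 2.95 FPKM and from 0.440 to 1.22 FPKM, with log2 fold changes of -0.07 and 0.20 and overlap between the genotypes.

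MHC class I presentation held 4 of the 6 members with a low unadjusted p. These were 4 of its 7 tested members, where 15.3% of all tested genes were higher in KO muscle at that threshold. The median GC content of the 7 was 55.3%, and all tested genes of 54% to 57% had a median log2 fold change of 0.34. After the GC correction described below, 0 of the 7 had an unadjusted p under 0.05 (limma), and their median log2 fold change was -0.05. The class I and class II members lie almost all in the MHC on chromosome 17, with 9 of 11 between 33915899 and 36032855. Genes of this region that code for class I heavy chains are close paralogs, so their separate values are uncertain.

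*Tap2* had the largest fold change of all tested members. It encodes a subunit of the transporter that carries peptides into the endoplasmic reticulum. It was at 1.18, 1.08 and 1.71 FPKM in WT mice 1, 7 and 8, and in KO mice 1, 7 and 8 at 2.14, 2.46 and 1.88 FPKM. Each KO library lay above each WT library, with means of 1.32 ± 0.336 FPKM (SD, n = 3) for WT, against 2.16 ± 0.291 FPKM (SD, n = 3) for KO mice. The difference was 1.61-fold, or 0.68 on the log2 scale (SE 0.22, 95% interval from 0.18 to 1.19, unadjusted p = 0.0146 and adjusted p = 0.115 by limma). *Gm15821*, which overlaps *Tap2* on the other strand, had means of 0.121 FPKM in WT and 0.244 FPKM in KO mice, and it too had each KO library above each WT library. *Tap1*, its partner subunit, was lower, at 0.408 to 0.683 FPKM in the WT mice and 0.355 to 0.866 FPKM in the KO mice. Its log2 fold change was 0.15, and the 95% interval, from -0.77 to 1.07, took in the value of *Tap2*.

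*Tapbp* had the lowest p of the members. It encodes tapasin, which bridges the transporter to class I heavy chains. It was at 6.33, 6.98 and 7.64 FPKM in WT mice 1, 7 and 8, and in KO mice 1, 7 and 8 at 9.05, 9.89 and 9.92 FPKM. The gap between the genotypes was wider than the range within each. The fitted log2 difference was 0.46 (SE 0.12, unadjusted p = 0.00512 and adjusted p = 0.0853 by limma). *Tapbp* overlaps *Zbtb22* on the same strand over 3422 bases, and *Zbtb22* also had each KO library above each WT library (log2 fold change 0.55, adjusted p = 0.101). How fragments were divided between them is not known.

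The classical heavy chain *H2-K1* was at 21.6, 19.2 and 21.5 FPKM in WT mice 1, 7 and 8, and in KO mice 1, 7 and 8 at 25.3, 27.2 and 24.1 FPKM, with no overlap. On the log2 scale KO minus WT was 0.30 (SE 0.11, unadjusted p = 0.0249 and adjusted p = 0.145 by limma). The other classical heavy chain, *H2-D1*, was at 25.04, 16.7 and 19.4 FPKM in the WT mice, against 24.2, 40.4 and 26.1 FPKM in the KO mice. KO mouse 7 stood far above the other KO libraries, and KO mouse 1 lay below WT mouse 1. The log2 fold change was 0.55 (SE 0.23, unadjusted p = 0.0449 and adjusted p = 0.183 by limma), and it was 0.32 without KO mouse 7. The nonclassical heavy chain *H2-T23* ranged from 3.67 to 6.09 FPKM, with KO mouse 7 the highest and a log2 fold change of 0.15. *B2m*, the light chain that every class I molecule needs, had the highest level of all members. It was at 94.96, 74.9 and 75.9 FPKM in WT mice 1, 7 and 8, and in KO mice 1, 7 and 8 at 66.2, 97.8 and 73.2 FPKM. The highest library of *B2m* was a KO and the next was a WT library. The fitted log2 difference was -0.06 (SE 0.17, 95% interval from -0.46 to 0.34, adjusted p = 0.845).

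**Figure D2:**
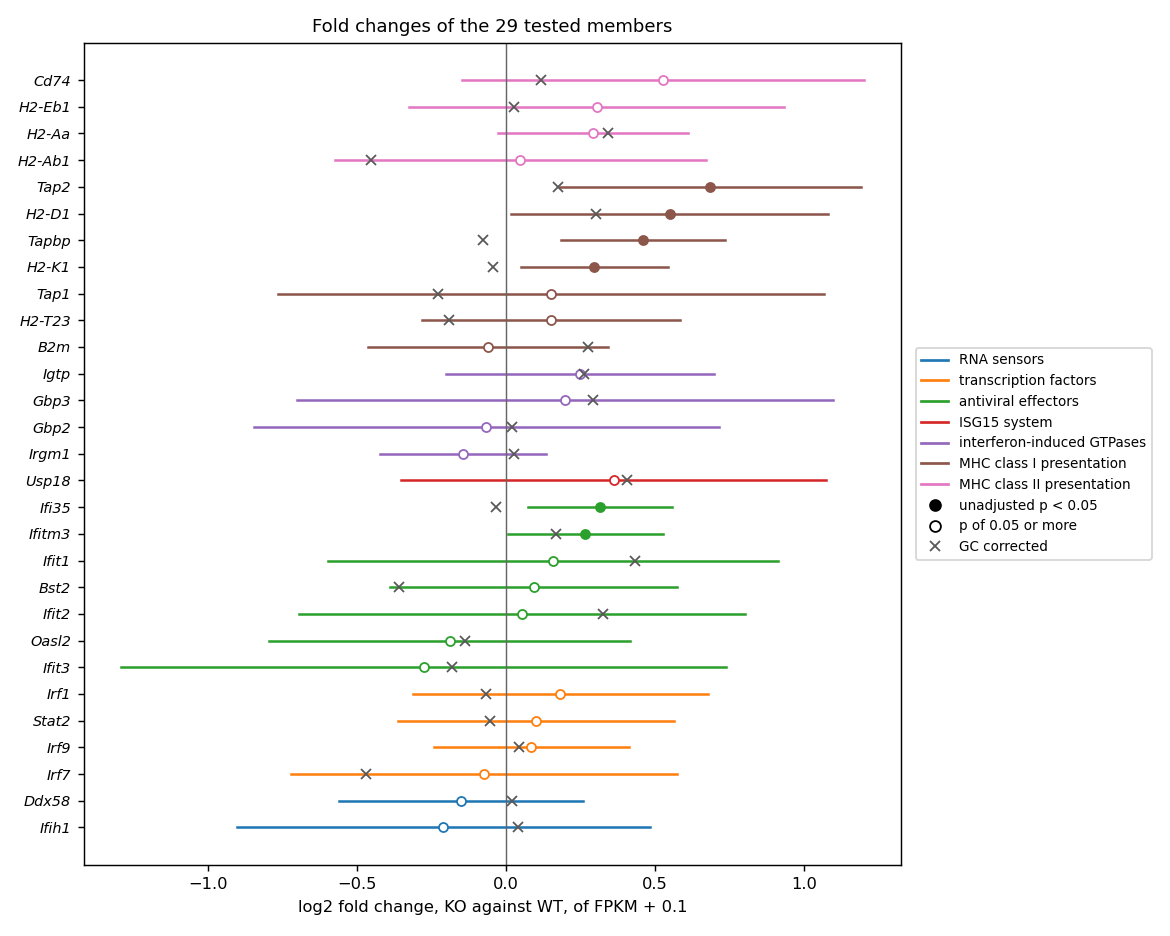
Log2 fold change of KO against WT on log2(FPKM + 0.1) for the 29 tested members, colored by role, with bars for the 95% intervals from limma and filled points for an unadjusted p under 0.05. Crosses give the values after the GC correction, where *Tap2* is at 0.17, *Tapbp* at -0.08, *H2-K1* at -0.05 and *Ifi35* at -0.03.

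In MHC class II presentation the 4 members had positive fold changes, and KO mouse 7 was the highest library for each. *Cd74*, the invariant chain that guides class II molecules to endosomes, was at 10.1, 14.7 and 15.1 FPKM in WT mice 1, 7 and 8, and in KO mice 1, 7 and 8 at 14.4, 29.5 and 15.7 FPKM. KO mice 1 and 8 lay close to WT mice 7 and 8. On the log2 scale KO minus WT was 0.53 (SE 0.29, adjusted p = 0.282), and 0.20 without KO mouse 7. *H2-Aa*, an alpha chain, was at 10.3, 10.3 and 9.59 FPKM in the WT mice, against 10.8, 14.7 and 11.8 FPKM in the KO mice. Each KO library lay above each WT library, although KO mouse 1 was close to WT mice 1 and 7. The log2 fold change was 0.29 (SE 0.14, unadjusted p = 0.0688 and adjusted p = 0.221 by limma), and 0.17 without KO mouse 7. The beta chains *H2-Eb1* and *H2-Ab1* ranged from 5.64 to 6.57 FPKM and from 5.83 to 7.47 FPKM in WT muscle, and from 4.96 to 11.2 FPKM and from 5.21 to 10.6 FPKM in KO muscle. For both genes the WT range lay within the KO range. Their log2 fold changes were 0.30 and 0.05, and without KO mouse 7 they were 0.03 and -0.27.

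KO mouse 7 was the highest library in 15 of the 29 tested members and WT mouse 1 in 6. In class I and class II presentation KO mouse 7 was the highest in 10 of 11 members, and in the other roles in 5 of 18. The share of all tested genes with KO mouse 7 the highest was not counted. Its median deviation from the gene's mean, on the log2 scale, was 0.24 over the tested members and -0.01 over all tested genes. Without KO mouse 7, 2 members had an unadjusted p under 0.05 (*Tapbp* and *Ifi35*) in place of 6. Without WT mouse 7 the same 2 remained. Their log2 fold changes were 0.44 and 0.32 without KO mouse 7, and 0.46 and 0.34 without WT mouse 7. The share of all tested genes at that threshold was not counted in these fits, and leaving out a mouse lowers power for every gene.

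**Figure D3:**
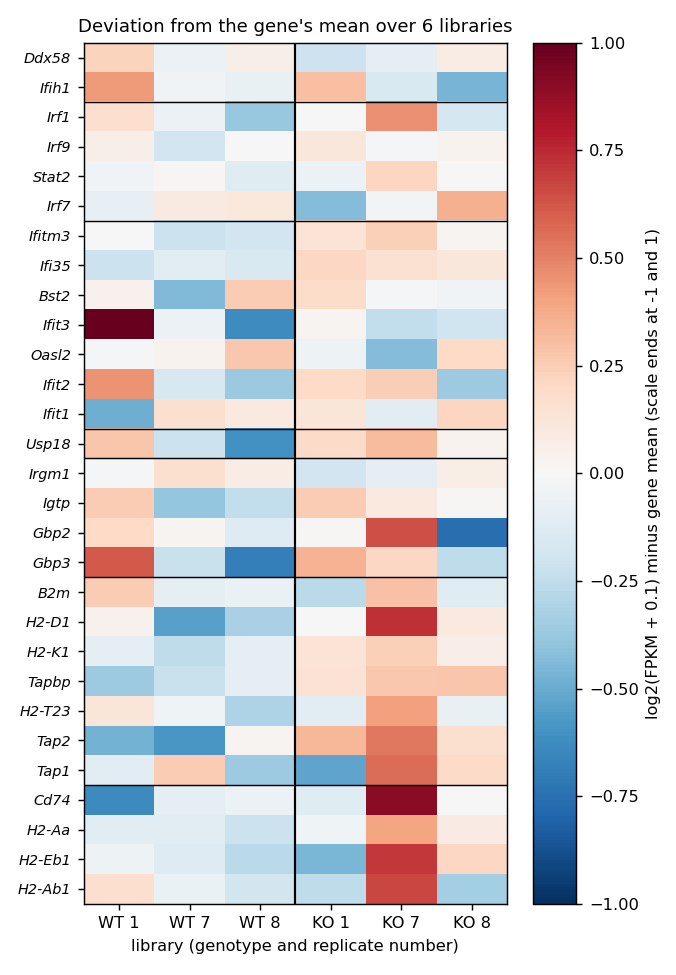
Deviation of log2(FPKM + 0.1) from the gene's mean over 6 libraries for each tested member, with 1 column per mouse (WT to the left, KO to the right) and roles separated by lines. Red is above and blue below the mean, and KO mouse 7 is the highest library in 10 of 11 rows of class I and class II presentation, while *Ifit3* peaks in WT mouse 1.

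Markers of macrophages, the main class II cells known in muscle, peaked in the same mouse as the class II members. The macrophage markers, 9 of 10 listed and found by symbol, summed to 22.3, 40.1 and 48.7 FPKM in WT mice 1, 7 and 8 and to 33.5, 76.5 and 47.0 FPKM in KO mice 1, 7 and 8. The class II members summed to 34.4, 37.5 and 36.2 FPKM in WT, against 35.7, 65.9 and 40.6 FPKM in KO muscle, in the same order. KO mouse 7 was the highest and WT mouse 1 the lowest for both sums, and the other 4 libraries lay between. Of 8 macrophage markers tested, 8 had a positive log2 fold change, with a median of 0.64, and 0 had an unadjusted p under 0.05 (limma). Pan-leukocyte markers summed to 7.11 to 10.6 FPKM in WT and to 7.61 to 14.7 FPKM in KO muscle, again with KO mouse 7 the highest. B cell markers summed to at most 0.302 FPKM in any library, with *Pax5* listed at 0 in all 6. T and NK cell markers summed to 0.542 to 1.53 FPKM in WT and 0.787 to 1.24 FPKM in KO muscle, with *Nkg7* listed at 0 in all 6 libraries. Dendritic cell markers summed to 2.60 to 4.58 FPKM in WT and 3.14 to 3.79 FPKM in KO muscle. Endothelial markers summed to 52.2 to 58.8 FPKM in WT and 54.5 to 68.5 FPKM in KO muscle, also with KO mouse 7 the highest. Markers of fibro-adipogenic cells summed to 455 to 670 FPKM in WT and 447 to 585 FPKM in KO muscle, with WT mouse 1 the highest. Their mean deviation on the log2 scale was highest in KO mouse 7 (0.36), with WT mouse 1 next (0.31). The class I members summed to 155, 124 and 130.3 FPKM in WT, against 132, 185 and 140.2 FPKM in KO mice 1, 7 and 8, so they shared the peak in KO mouse 7 but not the low value in WT mouse 1. The part of macrophage or endothelial content in the class I and class II values was not tested.

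**Figure D4:**
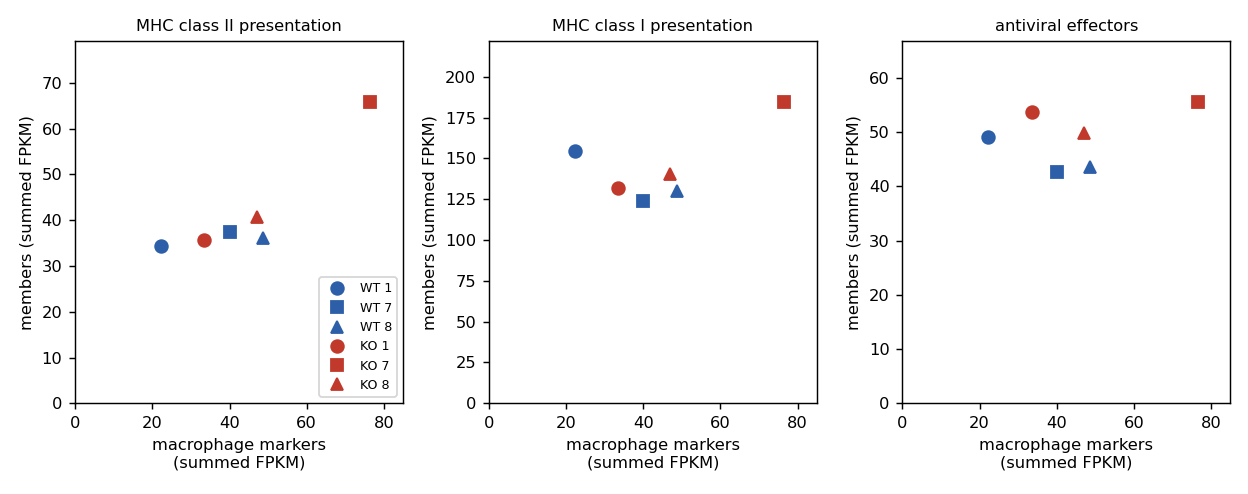
Summed FPKM of the class II, class I and antiviral effector members against the summed FPKM of the macrophage markers, with 1 point per mouse, WT in blue and KO in red, and both axes from 0. KO mouse 7 lies at 76.5 FPKM of macrophage markers with 65.9 FPKM of class II and 185 FPKM of class I members, and the other 5 mice lie at 48.7 FPKM of macrophage markers or less.

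GC content moved with the fold changes over the whole table and over the members. Across the 11985 tested genes of known GC content, the fold change rose with the GC content of the transcripts (Spearman's rho = 0.70 across genes, which share the 6 libraries). The median log2 fold change was -0.35 for genes under 42% GC and 0.54 for genes of 57% to 60%. Over the 29 tested members rho was 0.52. The 6 members with a low unadjusted p had a GC content of 51.8% to 58.4%, with a median of 55.3%. The other 23 had 41.2% to 57.7%, with a median of 49.1%, beside 50.1% over all tested genes.

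When each library was corrected for the trend on GC content, the median log2 fold change of the members went from 0.15 to 0.03, with 17 positive and 12 negative. Spearman's rho with GC content was then -0.01 over all tested genes of known GC content and -0.53 over the members. The correction thus turned the relation of the members round and did not remove it. *Tapbp*, *H2-K1* and *Ifi35* then had log2 fold changes of -0.08, -0.05 and -0.03, on the other side of 0. *Tap2*, *H2-D1* and *Ifitm3* remained positive at 0.17, 0.30 and 0.17, with unadjusted p of 0.391, 0.245 and 0.207 by limma. A single member, *H2-Aa*, had an unadjusted p under 0.05 after the correction, where 5.33% of all genes were higher at that threshold. At 48.9% GC, its log2 fold change was 0.34 (SE 0.13, unadjusted p = 0.0370 and adjusted p = 0.438 by limma). *B2m*, the member of lowest GC content at 41.2%, went from -0.06 to 0.27, and *H2-Ab1*, at 57.7%, went from 0.05 to -0.45. Whether the trend on GC content belongs to the genotype or to the libraries cannot be told apart with 1 library per mouse.

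**Figure D5:**
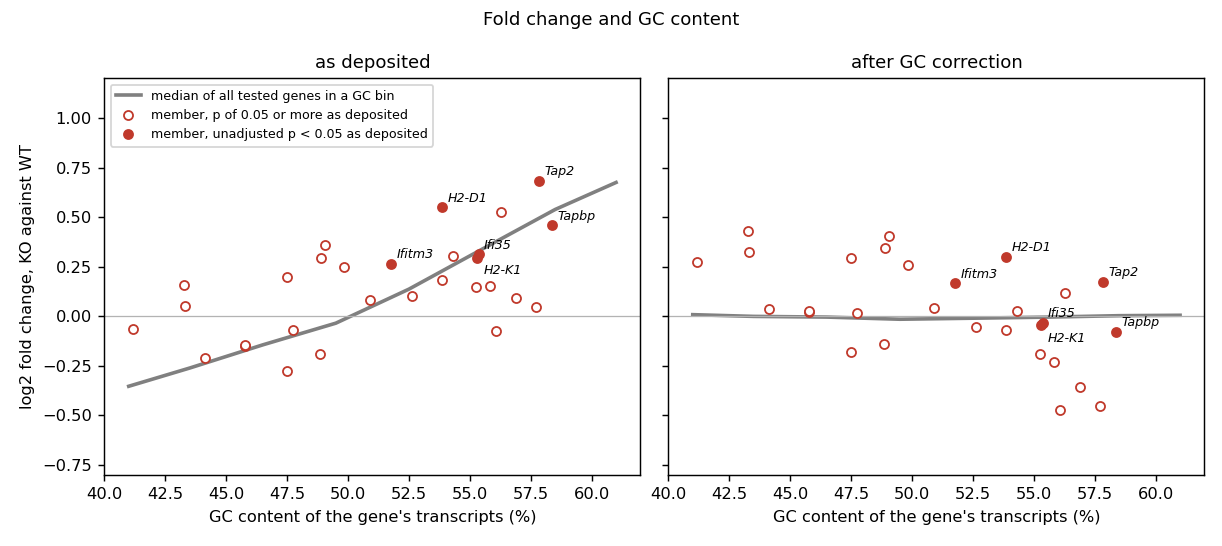
Log2 fold change against the GC content of the gene's transcripts, as deposited (left) and after the GC correction (right), with circles for the 29 tested members, filled where the unadjusted p was under 0.05 as deposited. The grey line joins the medians of all tested genes in GC bins, the open-ended bins being drawn at the ends, and runs from -0.35 to 0.68 on the left.

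The other genes of the pathway were read from lists of 164 symbols in 10 groups, of which 101 entries were tested. By limma, 0 of these were called (0.324% of all genes were), 11 were higher and 2 lower in KO muscle at an unadjusted p under 0.05 (15.3% and 10.9% of all tested genes were), and the median log2 fold change was 0.10.

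Of 10 interferon gene symbols looked up, 8 were found, alpha, beta and gamma among them. All 8 were listed at 0 in each of the 6 libraries, so none of these ligands could be compared. Other interferon genes were not looked up. Of 8 receptor and kinase genes tested, *Ifngr1*, the ligand-binding chain of the interferon gamma receptor, was at 14.3, 12.0 and 12.6 FPKM in WT mice 1, 7 and 8, and in KO mice 1, 7 and 8 at 16.5, 19.2 and 15.6 FPKM. Its genotypes did not overlap. The fitted log2 difference was 0.39 (SE 0.13, unadjusted p = 0.0159 and adjusted p = 0.120 by limma), and it was 0.48 after the GC correction. *Tyk2*, a kinase of the type I receptor, had the largest difference of this group, on the log2 scale, 0.57 (adjusted p = 0.130), and 0.18 after the GC correction. *Jak1*, the most abundant, had -0.16 (adjusted p = 0.581). In the list of other STAT and IRF factors, *Stat3*, which interleukin 6 activates, had both the highest level and the largest log2 fold change, 0.46 (adjusted p = 0.192), and 0.31 after the GC correction. Among 9 negative regulators, the most abundant was the phosphatase gene *Ptpn11*, with 0.07 (adjusted p = 0.728). *Socs3*, which is induced by STAT3, had the largest log2 fold change, 0.91 with an SE of 0.44 (adjusted p = 0.236), and 0.27 after the GC correction.

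Of 33 other interferon-stimulated genes tested, 3 were higher (*Ifi27l2a*, *Ifitm2* and *Shisa5*) at an unadjusted p under 0.05, against 15.3% of all tested genes. In that list 1 (*Eif2ak2*) was lower, against 10.9% of all tested genes. *Ifitm2*, the neighbor and paralog of *Ifitm3*, was the most abundant, at 34.1, 31.0 and 30.9 FPKM in WT mice, against 41.7, 55.1 and 42.5 FPKM in KO mice 1, 7 and 8 (log2 fold change 0.52, adjusted p = 0.0861, and 0.24 after the GC correction). *Ifi27l2a* had the largest difference, 1.45 on the log2 scale (SE 0.44, adjusted p = 0.107). It was at 19.8, 8.96 and 18.6 FPKM in the WT mice, against 27.3, 76.7 and 33.0 FPKM in the KO mice, so it too peaked in KO mouse 7, and it had 1.27 after the GC correction. Of 9 other interferon-induced GTPase genes, *Tgtp2* had the largest difference, at 1.29, 0.904 and 0.627 FPKM in the WT mice, against 0.0756, 0.234 and 0.0234 FPKM in the KO mice. No KO library reached the lowest WT library, with a log2 fold change of -2.38 (SE 0.54, adjusted p = 0.0750). *Tgtp2* rested on about 1 to 74 fragments per library, so the size of its difference is uncertain. Its near-identical paralog *Tgtp1* was at 0.0590, 0.0911 and 0.0738 FPKM in WT mice 1, 7 and 8, at 0.668 and 0.0697 FPKM in KO mice 7 and 8, and listed at 0 in KO mouse 1. How fragments were divided between the paralogs is not known. *Iigp1*, the most abundant of that list, was at 8.80 to 17.6 FPKM in the WT mice and 3.71 to 18.2 FPKM in the KO mice (log2 fold change -0.72, adjusted p = 0.427).

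Of 9 tested nucleic acid sensing genes, 2 (*Trex1* and *Ticam1*) were higher at an unadjusted p under 0.05, against 15.3% of all tested genes. The largest difference was that of *Trex1*, which degrades cytosolic DNA, at 2.18, 2.20 and 4.89 FPKM in WT mice, against 6.23, 7.33 and 7.63 FPKM in KO mice 1, 7 and 8 (log2 fold change 1.27, adjusted p = 0.0785, and 0.74 after the GC correction). *Mavs*, the adaptor of both RNA sensors and the most abundant of this list, had 0.28 (adjusted p = 0.317), and 0.045 after the GC correction. Of 6 entries for the immunoproteasome and its activator, *Psmb10*, a catalytic subunit induced by interferon gamma, had 0.87 on the log2 scale (adjusted p = 0.109), and 0.33 after the GC correction. The activator subunit *Psme1*, the most abundant, had -0.37 (adjusted p = 0.224), and -0.66 after the GC correction, opposite in sign to *Psmb10*. Of 12 other class I presentation genes, 1 (*H2-T22*) was higher at an unadjusted p under 0.05, against 15.3% of all tested genes. The chaperone gene *Calr* was the most abundant of these, with -0.06 (adjusted p = 0.754), and *Cd1d1*, a lipid-presenting relative, had the largest difference, 0.90 with an SE of 0.86 (adjusted p = 0.525), which was 0.085 without KO mouse 7 and 0.40 without WT mouse 7. Of 9 other class II presentation genes, 2 (*Ifi30* and *Rfxank*) were higher at an unadjusted p under 0.05, against 15.3% of all tested genes. *Rfxank*, part of the complex that binds class II promoters, had the largest log2 difference, 0.54 (adjusted p = 0.169), and 0.20 after the GC correction. *Ctsl*, a lysosomal protease gene and the most abundant, had 0.24 (adjusted p = 0.309), and 0.38 after the GC correction.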

How the data were processed

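Total RNA of GAS muscle was made into libraries with a stranded mRNA kit and sequenced in pairs of 150 bases. Per the study's methods and the submitters' processing notes, the authors used TopHat to map reads to GRCm38 and Cufflinks for the gene levels. The deposited values are FPKM per gene and mouse, without counts. Tool versions, annotation release and strand setting are not given in the sources used here. Among 14983 genes above 0 in each library, no pair of libraries had over 1 value in common, so no library was a copy of another. Each mouse was taken as 1 replicate, as the study states 3 mice per genotype.

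The members and lists were chosen with earlier results of these data known. Log2(FPKM + 0.1) of genes whose mean reached 0.5 FPKM was fitted with limma 3.58.1 (R 4.3.3) with a variance trend, and p-values were adjusted by Benjamini and Hochberg over all 12334 genes. The study's own test needs reads and was not run. Intervals are 95% intervals from limma for the difference between the genotype means, with each gene's variance moderated by that of all tested genes. Genes under the filter were tested by exact permutation. FPKM give no counts. Depth was therefore estimated from low values of genes with 1 transcript of 1500 to 6000 bases, of which 90% to 94.2% were whole fragments within 0.15. GC content and positions came from GENCODE vM21. The GC correction subtracted a loess curve (span 0.3) from each library's deviations. The fit was tested on simulated data without a trend on GC content. At an adjusted p under 0.05 it recovered 66.0% of genes changed by 1 on the log2 scale and 88.7% of those changed by 2, with 10 false calls. In the simulation a gene's spread followed its mean level alone and was alike in all libraries, so recovery in the real data may be lower. Changes as small as those of the members were not simulated.

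Values of each library were given for members with an unadjusted p under 0.05 or no overlap, and for the most abundant and the member of largest fold change of each role. Of each pathway list the most abundant and the gene of largest fold change were named. The value of 1 other gene is not reported here. *Ifit3*, *Ifngr1*, *Eif2ak2*, *Shisa5*, *Ticam1*, *Ifi30*, *H2-T22*, *Tgtp1* and the genes that overlap members were named after their values were seen. Motif letters were chosen after the promoters had been scanned. Promoters are from RefSeq on GRCm38.p6, and 27 of 32 members had a window; *Cd74*, *Ciita*, *H2-Ab1*, *Tap2* and *Usp18* had none. Alternatives covered the pseudocount, filter, scaling, variance model, replicate block, GC content, length, shared symbols and leaving out each library.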

Additional observations from a re-analysis of the deposited data

How the results depend on the processing

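With each of 20 alternatives in turn, 10 of the 29 tested members kept the sign of their log2 fold change and 19 changed it in at least 1. The settings for pseudocount, filter, median centring, variance trend and shared symbols led to no call and no change of sign. Among these, median centring and the fit without a variance trend each left 4 members higher at an unadjusted p under 0.05, in place of 6. The members' median of 0.15 became 0.028 with the GC correction, with or without the replicate block, and 0.035 with the length correction. Members higher at an unadjusted p under 0.05 numbered 3 with quantile normalization, 2 with the length correction, 1 with the GC correction and 0 with the GC correction and the replicate block. The share of all tested genes at that threshold was not counted under the alternatives, apart from 5.33% higher with the GC correction alone.

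With the GC correction, with or without the block, these log2 fold changes crossed 0: *B2m* 0.27, *Bst2* -0.36, *Ddx58* 0.021, *Gbp2* 0.019, *H2-Ab1* -0.45, *H2-K1* -0.046, *H2-T23* -0.19, *Ifi35* -0.034, *Ifih1* 0.039, *Irf1* -0.067, *Irgm1* 0.028, *Stat2* -0.056, *Tap1* -0.23 and *Tapbp* -0.079. With the length correction *Bst2* was at -0.089, *H2-Ab1* at -0.084 and *Ifit2* at -0.032. With quantile normalization *Ifit2* was at -0.041 and *Stat2* at -0.0019. With limma's array weights *Ddx58* was at 0.017, *H2-Ab1* at -0.10, *Irf7* at 0.042 and *Tap1* at -0.082. Those weights called 6 members (*H2-D1*, *H2-K1*, *Ifi35*, *Ifitm3*, *Tap2* and *Tapbp*) and 15 genes of the pathway lists, of which 30 had an unadjusted p under 0.05. They called 25.5% of all tested genes, and gave WT mouse 7 a weight of 6.12 and WT mouse 1 a weight of 0.355.

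With each mouse left out in turn, 0 members were called, 2 to 7 were higher at an unadjusted p under 0.05, and the median was 0.06 to 0.25. Of the pathway lists 0 to 1 gene was called (1 without WT mouse 8), and 8 (without KO mouse 7) to 20 (without KO mouse 1) had an unadjusted p under 0.05. Log2 fold changes that crossed 0 ranged from -0.23 to 0.056 (*B2m*), -0.10 to 0.24 (*Bst2*), -0.40 to 0.29 (*Gbp2*), -0.094 to 0.55 (*Gbp3*), -0.27 to 0.23 (*H2-Ab1*), -0.017 to 0.25 (*H2-T23*), -0.048 to 0.27 (*Ifit1*), -0.12 to 0.29 (*Ifit2*), -0.66 to 0.20 (*Ifit3*), -0.27 to 0.13 (*Irf7*) and -0.092 to 0.45 (*Tap1*).

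Same-numbered mice of the genotypes did not deviate together (correlations over genes of -0.03, -0.08 and 0.03), and differently numbered mice gave -0.07 to 0.09. The mice were therefore not treated as pairs. What the numbers mean is not given, and these correlations cannot exclude a shared litter or batch. A replicate block gave 4 members higher at an unadjusted p under 0.05 and 0 called. Apart from the settings' own construction, the cause of these changes was not tested. Depth limits *Isg15*, *Rsad2* and *Ciita*, and 9 tested members had means under 1 FPKM. With 3 mice a genotype, an effect that misses the threshold is not shown to be absent.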
